A study of Mus musculus with 12 samples.

Results

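The neuropeptide precursor genes Crh, Adcyap1, Vip, Sst, Npy, Tac1, Penk, Cck, Cartpt and Vgf of the mouse retina are described here in every retina of the series. They are 10 of the 36131 genes in the count table, and all 10 were among the 16688 genes tested. The set was chosen by its levels in these data, since Crh and Adcyap1 were the neuropeptide genes most increased in retinas given IC100 over retinas given PBS after oxygen. That comparison is therefore described without a test.

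Polyadenylated RNA was sequenced from retinas of wildtype C57BL/6J mice at postnatal day 18 (P18). The 4 RA-PBS mice (animals 1 to 4) were kept in room air and given PBS, the placebo. The 4 O2-PBS mice (animals 5 to 8) and the 4 O2-IC100 mice (animals 9 to 12) were kept in 75% oxygen from P7 to P12 and then returned to room air, the oxygen-induced retinopathy model. IC100 is a humanized monoclonal antibody against the inflammasome adaptor ASC. Per the labels, it was given at 10 µg/g into the peritoneum on P12, P14 and P16, the days on which the other mice received PBS. No RA-IC100 group was analysed here, so an action of IC100 without prior oxygen cannot be read from these retinas.

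Neuropeptides are cut out of larger precursor proteins, stored in dense-core granules and released to act on G protein-coupled receptors, many of which raise or lower cyclic AMP. In the retina most are made by small subsets of amacrine cells, the inhibitory interneurons of the inner retina, so their transcripts are rare in RNA from whole tissue. PACAP, the product of Adcyap1, is also known from the melanopsin-containing ganglion cells that carry light signals to the brain clock. Several precursor genes, Sst and Vip among them, are textbook targets of CREB, the transcription factor that binds the cyclic AMP response element.

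This element was the only sequence searched for, and the stretch that holds it is printed for each of the genes in which it was found. The RefSeq promoter windows (GRCm38.p6, 250 bases before to 50 after an annotated start) were searched on both strands for the full element TGACGTCA and for its core TGACGT, which the full element contains. Windows were at hand for 7 of the 10 genes, with no entry for Crh, Penk and Vgf. Each line below runs 5′ to 3′ on the strand of the gene, and the capitals mark the element.
Adcyap1, chr17:93198886-93198971, plus strand: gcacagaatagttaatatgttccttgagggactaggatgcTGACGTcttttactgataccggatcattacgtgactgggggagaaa
Vip, chr10:5639099-5639184, plus strand: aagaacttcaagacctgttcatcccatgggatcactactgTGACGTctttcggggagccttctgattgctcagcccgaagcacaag
Sst, chr16:23890845-23890932, minus strand: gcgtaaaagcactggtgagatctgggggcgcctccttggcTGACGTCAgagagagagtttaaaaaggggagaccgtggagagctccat
Cartpt, chr13:99900748-99900835, minus strand: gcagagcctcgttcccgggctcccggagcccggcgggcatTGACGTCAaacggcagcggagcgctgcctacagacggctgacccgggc

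The full element stood in the windows of Sst and Cartpt, at -48 and -112 from the start. The core alone stood in those of Adcyap1 and Vip, at -91 and -79. Adcyap1 had a further annotated start, from which the same core lay at -242. Neither was found in the windows of Npy, Tac1 and Cck. Of 27025 genes with a window, 2.03% held the full element and 8.37% the core. These are matches of letters and say nothing of whether CREB binds there in these retinas.

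One library stood apart before any comparison. In O2-IC100 animal 10, crystallin genes, which encode the proteins of the lens, took 59.0% of all counts, against at most 4.51% in the other 11 retinas, and the summed rod markers were 10693 normalized CPM (counts scaled by library size and by the trimmed mean of M-values) against 40259 to 48420. As a share of all counts, the rod markers were 0.347% in animal 10 and 3.92% to 4.86% in the other retinas. The comparisons below rest on the other 11 retinas, and animal 10 is given beside them. Its normalized CPM come from a scaling of all 12 retinas, and those of the other 11 from a scaling without it. Total counts ran from 14906970 to 24437916 per retina. Thus 3 counts, taken as the floor of detection, corresponded to 0.123 to 0.201 CPM by total counts alone. In animal 10, 3 counts were 0.379 normalized CPM. Summed Y-linked transcripts were high in RA-PBS animals 1 to 3, O2-PBS animal 8 and O2-IC100 animals 9, 11 and 12 (246 to 362 CPM) and low in RA-PBS animal 4, O2-PBS animals 5 to 7 and O2-IC100 animal 10 (4.04 to 10.9 CPM), so the O2-PBS and O2-IC100 retinas compared differed in their Y-linked content. Fits with the Y-linked level as a covariate are given where they bear on a result.

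The 10 precursors covered a wide span of levels. Per kilobase of transcript, Cartpt, the precursor of the CART peptides, was the most abundant in every group, with 60.4 ± 14.4 normalized CPM per kb in RA-PBS retinas (SD, n = 4), 34.8 ± 5.55 in O2-PBS retinas (SD, n = 4) and 43.9 ± 2.90 in O2-IC100 retinas (SD, n = 3). Npy followed at 21.0 ± 3.72 CPM per kb in RA-PBS retinas and Tac1 at 15.5 ± 2.92, and the ranges of these neighbours overlapped in all 3 groups. Cck, Vgf, Penk and Vip lay between 8.29 and 12.0 CPM per kb in RA-PBS retinas, and each overlapped the next in that order. Sst (2.53), Adcyap1 (1.80) and Crh (0.720) were the rarest in room air, where Sst overlapped both others and Crh lay below Adcyap1. In O2-IC100 retinas the order at the bottom differed, with Crh at 3.43 ± 0.937 CPM per kb and Adcyap1 at 2.99 ± 0.219, which overlapped, and Sst at 1.78 ± 0.369 below them.

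**Figure D1:**
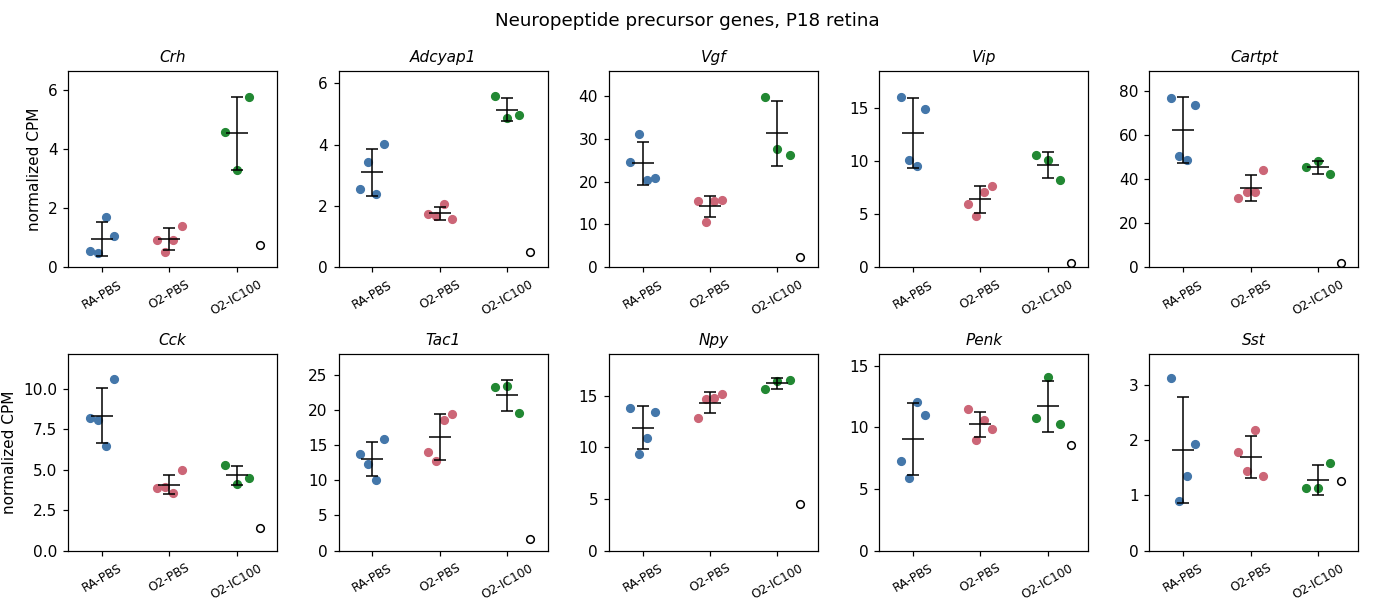
Normalized CPM (vertical axis, linear and starting at 0) of the 10 precursor genes in each retina of the RA-PBS, O2-PBS and O2-IC100 groups. Filled points are the 11 retinas compared, bars are the mean ± SD of those retinas, and the open circle is O2-IC100 animal 10. Adcyap1, Vip, Cck, Cartpt and Vgf were lower in every O2-PBS than in every RA-PBS retina, and Crh, Adcyap1 and Vgf were higher in every filled O2-IC100 point than in every O2-PBS retina.

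The first question was how the peptide genes stood in the retinopathy itself, O2-PBS against RA-PBS. In oxygen-exposed retinas 5 members, Adcyap1, Vip, Cck, Cartpt and Vgf, fell by 0.76 to 1.03 on the log2 scale, and none of the 10 rose. A gene was called when its fold was at least 1.5, its p was under 0.05 and its Benjamini-Hochberg adjusted p was under 0.1 in edgeR's quasi-likelihood test over all 16688 genes. By that rule 2.18% of all tested genes fell and 4.09% rose. These 5 were also lower in every O2-PBS than in every RA-PBS retina, as were 6.48% of all tested genes. The median difference of the 10 members was -0.43 on the log2 scale, against -0.01 over all tested genes. The O2-PBS retinas of this comparison are the same ones against which Crh and Adcyap1 were singled out, so it is not independent of the choice of these genes.

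Cck (ENSMUSG00000032532) encodes cholecystokinin, a peptide of amacrine cells. It stood at 8.19, 8.05, 6.47 and 10.6 normalized CPM in RA-PBS animals 1 to 4 and at 3.84, 3.93, 3.56 and 4.96 in O2-PBS animals 5 to 8. The highest O2-PBS retina lay below the lowest RA-PBS retina. The log2 difference was -1.03 (SE 0.18, edgeR adjusted p = 0.00402).

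Vip (ENSMUSG00000019772) encodes vasoactive intestinal peptide, made by a class of GABAergic amacrine cells. Its levels were 16.1, 10.1, 9.58 and 14.9 normalized CPM in the RA-PBS retinas and 5.97, 4.85, 7.13 and 7.71 in the O2-PBS retinas. Again the groups did not overlap, although RA-PBS animals 2 and 3 stood well below animals 1 and 4. The log2 difference was -0.98 (SE 0.20, edgeR adjusted p = 0.00928).

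Cartpt (ENSMUSG00000021647) resembled Vip in the room air retinas. RA-PBS animals 1 to 4 held 76.6, 50.4, 48.7 and 73.8 normalized CPM and O2-PBS animals 5 to 8 held 31.2, 34.0, 34.4 and 44.3. As for Vip, animals 1 and 4 were the high RA-PBS retinas, and O2-PBS animal 8 came nearest to the room air range. The log2 difference was -0.79 (SE 0.15, edgeR adjusted p = 0.00739). Over the 11 retinas, Vip and Cartpt had the highest correlation of any pair of members (Pearson r = 0.95, log2 CPM), followed by Cck and Cartpt (r = 0.89) and by Adcyap1 and Vgf (r = 0.86). These values describe retinas that share group, library and depth.

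Adcyap1 (ENSMUSG00000024256) encodes PACAP, a peptide that raises cyclic AMP and is studied for its protection of retinal neurons. RA-PBS animals 1 to 4 gave 2.56, 3.44, 2.38 and 4.03 normalized CPM and O2-PBS animals 5 to 8 gave 1.72, 1.68, 2.06 and 1.59. The O2-PBS retinas lay in a narrow band under the lowest room air value. The log2 difference was -0.82 (SE 0.22, edgeR adjusted p = 0.0351).

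Vgf (ENSMUSG00000037428) encodes a granule protein that is itself cut into peptides and is induced by neurotrophins. It stood at 24.6, 31.1, 20.3 and 20.9 normalized CPM in RA-PBS retinas and at 15.4, 10.6, 15.4 and 15.7 in O2-PBS retinas. O2-PBS animal 6 was the lowest of the 11 retinas. The log2 difference was -0.76 (SE 0.18, edgeR adjusted p = 0.0185).

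The other 5 members overlapped between the groups and did not pass the test. Crh (ENSMUSG00000049796), which encodes corticotropin-releasing hormone, was rare in both, at 0.563, 0.477, 1.71 and 1.05 normalized CPM in RA-PBS retinas and 0.928, 0.520, 0.938 and 1.41 in O2-PBS retinas, from 9 to 28 counts per retina. The group means were almost equal, at 0.950 ± 0.566 (SD, n = 4) and 0.948 ± 0.363 (SD, n = 4), with a standard error of 0.42 on the log2 scale, and the sign of the difference depended on the retinas and settings used. Tac1 (ENSMUSG00000061762), the precursor of substance P, ran from 10.0 to 15.8 CPM in RA-PBS and from 12.7 to 19.3 in O2-PBS retinas (log2 difference 0.32, SE 0.16, edgeR adjusted p = 0.29).

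Npy (ENSMUSG00000029819), the precursor of neuropeptide Y, ran from 9.37 to 13.8 CPM in RA-PBS and from 12.8 to 15.1 in O2-PBS retinas, and Penk (ENSMUSG00000045573), the enkephalin precursor, from 5.93 to 12.1 and from 9.02 to 11.5. Their log2 differences were 0.27 (SE 0.13) and 0.17 (SE 0.21). Sst (ENSMUSG00000004366), which encodes somatostatin, stood at 3.13, 0.900, 1.34 and 1.93 CPM in RA-PBS retinas with animal 1 far above the others, and at 1.35 to 2.19 in O2-PBS retinas (log2 difference -0.10, SE 0.36). At these levels a change of Sst or Crh of moderate size was not detectable.

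In bulk RNA, fewer cells of a type and less RNA per cell cannot be told apart, and the summed markers of the cells that make these peptides were lower in O2-PBS retinas as well. The summed amacrine cell markers (10 genes, all tested) were 1488 to 1935 normalized CPM in RA-PBS and 1200 to 1317 in O2-PBS retinas, with a median log2 difference of -0.35 and 0 of 10 called. The summed ganglion cell markers (12 genes, all tested) were 996 to 1439 and 795 to 853 CPM, with a median of -0.37 and 1 of 12 called, Nefl. The log2 difference was above 0 for 0 of 10 amacrine and 1 of 12 ganglion cell markers. An unadjusted edgeR p under 0.05 was found for 9 of 10 and 4 of 12, and for 3648 of the 16688 tested genes. The defining markers Gad1 and Rbpms were detected throughout, and the rod marker sums overlapped. Set against the amacrine markers of the same retina, the 10 peptide genes summed to 7.94% to 11.1% in RA-PBS and 7.53% to 9.32% in O2-PBS retinas, which overlap. That sum also holds the 5 members that did not fall. It therefore cannot show how each of the 5 genes that fell stood against these markers. Markers of other cells differed too. Müller glia markers summed to 4278 to 5892 CPM in RA-PBS and 3366 to 3773 in O2-PBS retinas (median log2 difference -0.50, 2 of 8 called lower, Rlbp1 and Kcnj10), and bipolar cell markers to 1708 to 2153 and 1582 to 1833 CPM (median -0.30, 1 of 10 called lower, Vsx1). Endothelial markers summed to 265 to 388 and 556 to 627 CPM (8 of 10 called higher) and microglia markers to 53.8 to 114 and 102 to 136 CPM (3 of 10 called higher). The part of these cells in the fall of the 5 genes was not tested.

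**Figure D2:**
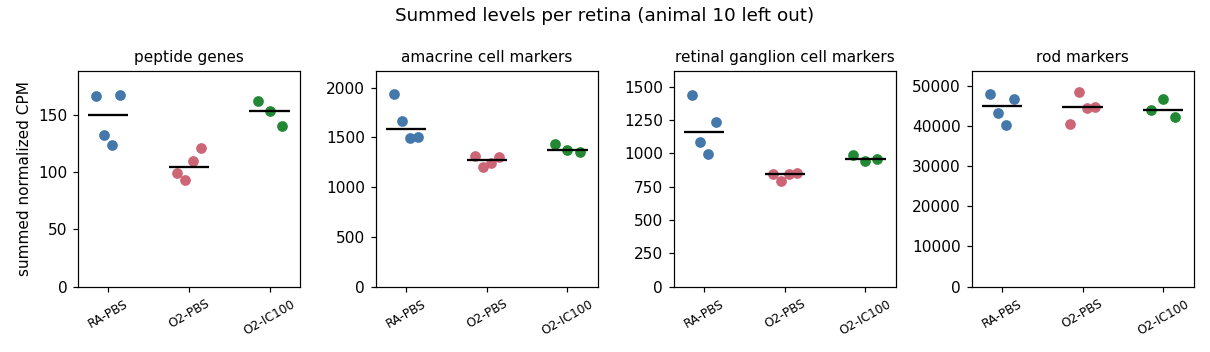
Summed normalized CPM per retina (vertical axes, linear, starting at 0) of the 10 peptide genes and of the amacrine cell, ganglion cell and rod marker lists, in the 11 retinas compared. Points are retinas and horizontal lines are group medians. The sums of peptide, amacrine and ganglion cell genes were lower in every O2-PBS than in every RA-PBS retina, while those of rod genes overlapped.

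Lens and pigment epithelium transcripts also differed between these groups. Crystallin genes took 0.00691% of the counts in RA-PBS animal 1 but 1.26% to 4.51% in RA-PBS animals 2 to 4, and at most 0.0204% in O2-PBS retinas, and all 19 lens markers tested were called lower. The pigment epithelium markers (8 genes, all tested) summed to 112 to 317 CPM in RA-PBS and 51.4 to 131 in O2-PBS retinas, with 4 called lower, and their part was not tested. With the lens markers as a covariate 4 of the 5 peptide genes were called, without Adcyap1 (edgeR adjusted p = 0.138). Over all 16688 tested genes that covariate gave 1988 called higher and 1014 lower, against 682 and 364 without it.

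With the Y-linked level as a covariate all 5 were called, with log2 differences from -0.66 (Vgf, edgeR adjusted p = 0.075) to -1.06 (Cck, 0.0105). Over all 16688 tested genes 537 were then called higher and 343 lower. A comparison within retinas of 1 kind of Y-linked content leaves a single retina on 1 side, RA-PBS animal 4 or O2-PBS animal 8, and was not made. The same 5 genes were called when any of the 11 retinas was left out. With all 12 retinas in the fit none of the 10 was called by edgeR, 1 (Cck) had an unadjusted p under 0.05, and DESeq2 called 1, although the log2 differences of the 5 genes were nearly the same (-0.76 to -1.03). In that edgeR fit 0.807% of all tested genes were called in either direction, and 1174 of 16489 had an unadjusted p under 0.05.

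The second comparison, O2-IC100 against O2-PBS, is the one on which Crh and Adcyap1 were singled out, and its values are given as a description. Of the 10 members 6, namely Crh, Adcyap1, Vgf, Vip, Tac1 and Npy, were higher in O2-IC100 animals 9, 11 and 12 than in every O2-PBS retina, and none was lower in all 3. The ranges of 19.4% of all tested genes were separated upward in this way. The median log2 difference of the members was 0.39, against 0.00 over all tested genes. Crh, Adcyap1 and Vgf also met the thresholds used for calls, as 0.216% of all tested genes did in this direction, and nothing is drawn from that count.

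Crh stood at 4.57, 3.27 and 5.75 normalized CPM in O2-IC100 animals 9, 11 and 12, from 77, 61 and 105 counts, against at most 1.41 CPM in O2-PBS and 1.71 in RA-PBS retinas. The lowest of the 3 was above all 8 PBS retinas. The mean was 4.53 ± 1.24 CPM (SD, n = 3), 4.76-fold that of the O2-PBS retinas, with a log2 difference of 2.25 (SE 0.42).

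Adcyap1 stood at 5.58, 4.88 and 4.98 normalized CPM, a mean of 5.15 ± 0.376 (SD, n = 3) against 1.76 ± 0.207 (SD, n = 4) in O2-PBS retinas. The 3 retinas were close together and above every retina of both PBS groups. The difference was 2.91-fold, or 1.54 on the log2 scale (SE 0.23).

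Vgf reached 39.8, 27.6 and 26.3 normalized CPM, with animal 9 above the others, and was 2.19-fold higher than in O2-PBS retinas (log2 difference 1.13, SE 0.19). Unlike Crh and Adcyap1, its O2-IC100 values overlapped those of room air retinas. Vip stood at 10.6, 10.1 and 8.26 CPM (log2 difference 0.59, SE 0.21), and its lowest O2-IC100 retina was below the room air minimum of 9.58 CPM.

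Tac1, at 23.2, 23.4 and 19.5 normalized CPM, was just above the highest O2-PBS retina at 19.3 (log2 difference 0.45, SE 0.17). Npy, at 15.6, 16.4 and 16.5 CPM, was just above 15.1 (log2 difference 0.18, SE 0.14). Neither had fallen in O2-PBS retinas, so the IC100 values lay farther from room air than the PBS values did.

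The remaining 4 members overlapped. Cartpt was 45.5, 48.2 and 42.2 normalized CPM in O2-IC100 retinas (log2 difference 0.33, SE 0.17), and Cck was 5.28, 4.13 and 4.49 (0.18, SE 0.20), so the member with the largest fall after oxygen was among the least different here. Penk ran from 10.3 to 14.1 CPM (0.20, SE 0.22) and Sst from 1.13 to 1.59 (-0.40, SE 0.40).

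**Figure D3:**
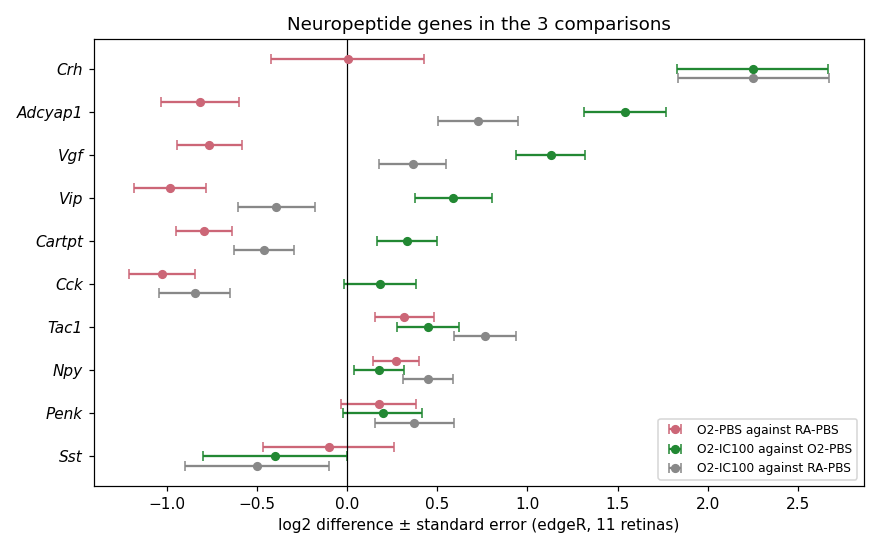
Log2 difference (horizontal axis) with its standard error for each of the 10 genes in the 3 comparisons, from the edgeR fit of 11 retinas; points right of 0 are higher in the first-named group. Crh and Adcyap1 lie at 2.25 and 1.54 in O2-IC100 against O2-PBS, and Adcyap1, Vgf, Vip, Cartpt and Cck lie between -0.76 and -1.03 in O2-PBS against RA-PBS.

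The 3 O2-IC100 retinas compared were all high in Y-linked transcripts, whereas only animal 8 of the O2-PBS retinas was. With the summed Y-linked level as a covariate the log2 differences were 2.07 for Crh, 1.84 for Adcyap1 and 0.95 for Vgf. Crh and Vgf then no longer met the thresholds used for calls, which over all tested genes 13 met upward and 23 downward. Without any 1 of O2-IC100 animals 9, 11 and 12 no tested gene met them, Adcyap1 included. Crh and Adcyap1 were singled out on this comparison, so nothing is drawn from the thresholds here. Amacrine and ganglion cell marker sums in the O2-IC100 retinas (1354 to 1429 and 944 to 986 CPM) were somewhat above those of O2-PBS retinas, with 0 of 10 and 0 of 12 called by edgeR. The peptide genes summed to 10.3% to 11.3% of the amacrine markers, above the 7.53% to 9.32% of O2-PBS retinas. Microglia markers summed to 130 to 162 CPM against 102 to 136, with 0 of 10 called, and pigment epithelium markers to 155 to 163 CPM against 51.4 to 131, with 0 of 8 called. Müller glia markers summed to 4206 to 4565 CPM against 3366 to 3773, with 1 of 8 called higher, Aqp4, and endothelial markers to 391 to 440 CPM against 556 to 627, with 3 of 10 called lower, Cdh5, Tie1 and Vwf. Their part in the differences was not tested.

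Animal 10 stood far below the other O2-IC100 retinas in Crh, Adcyap1 and Vgf. It held 0.757 normalized CPM of Crh (6 counts), 0.505 of Adcyap1 (4 counts) and 2.40 of Vgf, and its Vip rested on 3 counts, the floor. Retinal neuron markers were low in it too, at 10693 CPM for rod markers against 42201 to 46709 in animals 9, 11 and 12, 237 against 944 to 986 for ganglion cell markers, and 756 against 1354 to 1429 for amacrine cell markers. Bipolar cell markers were 1177 CPM against 1621 to 1659. Other lists were higher in animal 10, with Müller glia markers at 7464 CPM against 4206 to 4565. Microglia markers were 497 against 130 to 162, and pigment epithelium markers 7604 against 155 to 163. As a share of all counts, its Müller glia markers were lower, at 0.242% against 0.428% to 0.455%. The 10 peptide genes summed to 3.09% of its amacrine markers, against 10.3% to 11.3%. With all 12 retinas in the fit the log2 differences were 1.93 for Crh, 1.19 for Adcyap1 and 0.75 for Vgf, and the median over the 10 members was 0.09. In that fit the sign of Npy, Cck and Cartpt turned, to -0.10, -0.07 and -0.07.

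The third comparison, O2-IC100 against RA-PBS, asks how near the treated retinas lay to retinas never exposed to oxygen. It was tested for the 8 members other than Crh and Adcyap1. The O2-IC100 retinas of this comparison are the same ones in which Crh and Adcyap1 were singled out, so it is not independent of the choice of the set. Tac1 rose and Cck fell, against 0.947% of all tested genes called higher and 0.617% called lower, and 6 did not pass the test. Tac1 was 22.0 ± 2.22 normalized CPM in O2-IC100 retinas (SD, n = 3) and 13.0 ± 2.44 in RA-PBS retinas (SD, n = 4), without overlap (log2 difference 0.76, SE 0.17, edgeR adjusted p = 0.0645). Cck was 4.63 ± 0.588 and 8.32 ± 1.69 CPM, also without overlap (log2 difference -0.85, SE 0.20, edgeR adjusted p = 0.069).

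Of the 10 members, 4 lay above and 2 below every room air retina, as did 5.84% and 4.92% of all tested genes. Cartpt (log2 difference -0.46, SE 0.17, edgeR adjusted p = 0.202) lay below and Npy (0.45, SE 0.14, 0.143) above every room air retina without passing the test. Vip (-0.39, SE 0.21), Vgf (0.36, SE 0.19), Penk (0.37, SE 0.22) and Sst (-0.50, SE 0.40) overlapped room air. Crh and Adcyap1 are described only, with log2 differences of 2.25 (SE 0.42) and 0.73 (SE 0.22), and both were above all 4 room air retinas. Amacrine and ganglion cell marker sums (1354 to 1429 and 944 to 986 CPM) lay below every room air sum (1488 to 1935 and 996 to 1439). By edgeR 1 of 10 and 1 of 12 were called lower, Slc6a9 and Nefh. Of microglia and endothelial markers 6 of 10 and 5 of 10 were called higher. The 19 lens markers had a median log2 difference of -8.71, with 1 called lower. Their part was not tested.

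The calls of Tac1 and Cck rested on few retinas. Without any of O2-IC100 animals 9, 11 and 12 or RA-PBS animal 2 neither was called (edgeR adjusted p from 0.125 to 0.272), nor was Cck without O2-PBS animal 6 or 7 (0.109 and 0.101), and neither was with all 12 retinas in edgeR (0.717 for Tac1 and 0.374 for Cck), although DESeq2 on all 12 called Cck (DESeq2 adjusted p = 0.0188). In that edgeR fit 0% of all tested genes were called. Calls over all tested genes also fell in the fits named, from 158 higher and 103 lower in the main fit. They were 59 and 21 without animal 9, 23 and 8 without animal 11, and 17 and 4 without animal 12. Without RA-PBS animal 2 they were 66 and 34, and without O2-PBS animals 6 and 7 in turn 105 and 54, and 102 and 58. Tac1 was also lost with the lens covariate (0.147).

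The receptors on which these peptides act form the other side of the pathway. Of 24 receptor and binding protein genes listed, 23 had a row in the table and 15 were tested, the rest being too low. In O2-PBS against RA-PBS 1 fell and none rose, beside 2.18% of all tested genes called lower and 4.09% called higher. Tacr3, the receptor of neurokinin B that marks a class of bipolar cells, was 38.1, 31.0, 20.8 and 30.7 normalized CPM in RA-PBS and 16.9, 10.8, 14.6 and 15.3 in O2-PBS retinas. The 2 groups did not overlap (log2 difference -1.07, SE 0.18, edgeR adjusted p = 0.00310). Tacr1, the receptor of substance P, was 12.0 ± 1.78 and 8.02 ± 0.655 CPM (SD, n = 4 each) and missed the fold threshold (log2 difference -0.58, edgeR adjusted p = 0.0219).

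The receptors of CRH, PACAP, VIP and somatostatin were not called in this comparison. Crhr1, the main CRH receptor, was 10.8 ± 0.825 normalized CPM in RA-PBS and 8.16 ± 0.528 in O2-PBS retinas (SD, n = 4 each), a difference under the fold threshold (-0.40 on the log2 scale, edgeR adjusted p = 0.0498). Adcyap1r1, the PACAP receptor, was 13.1 ± 1.63 and 9.94 ± 1.83 CPM (log2 difference -0.40, edgeR adjusted p = 0.136). Vipr2, which binds both VIP and PACAP, was the most abundant receptor transcript per kilobase, at 28.4 and 24.6 CPM per kb, and did not pass the test. Crhr2, Vipr1 and the somatostatin receptors Sstr1, Sstr2 and Sstr3 had means of at most 5.03 CPM in any group. Crhbp, which encodes a secreted protein that binds CRH, ran from 3.50 to 25.0 CPM within the RA-PBS group alone.

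No receptor was called in O2-IC100 against O2-PBS by edgeR, DESeq2 or voom on 11 retinas, while 0.731% of all tested genes were called lower there. An unadjusted edgeR p under 0.05 was found for 0 of 15 receptors and for 3201 of the 16688 tested genes. While Crh and Adcyap1 were higher in the O2-IC100 retinas, Crhr1 was 8.13 ± 0.384 normalized CPM there (SD, n = 3; log2 difference -0.00 from O2-PBS) and Adcyap1r1 was 8.09 ± 1.06 (-0.30, edgeR adjusted p = 0.335). In O2-IC100 against RA-PBS 3 of the 15 receptors fell, beside 0.617% of all tested genes called lower. Adcyap1r1 was 9.25, 7.19 and 7.82 CPM in O2-IC100 animals 9, 11 and 12, below all 4 room air retinas (log2 difference -0.70, SE 0.17, edgeR adjusted p = 0.0727). Tacr1 (log2 difference -0.92, edgeR adjusted p = 0.0227) and Tacr3 (-0.75, 0.0857) were the others. None of the 3 was called with all 12 retinas, where animal 10 alone held 36.1 CPM of Tacr1 and its difference turned to 0.27. Leaving out single retinas moved this count between 0 and 3.

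**Figure D4:**
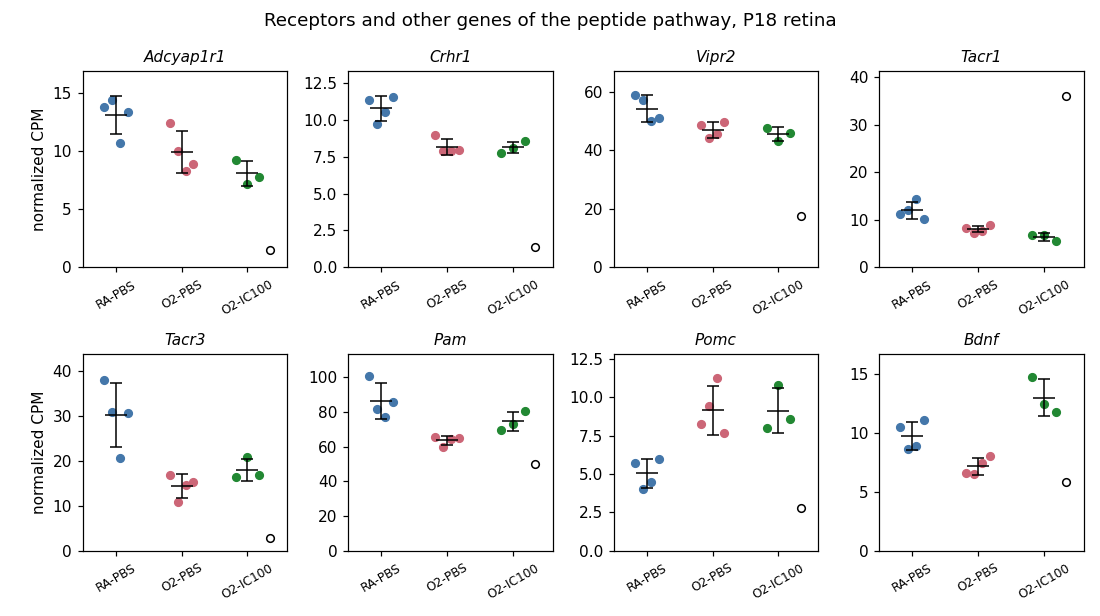
Normalized CPM (vertical axes, linear, starting at 0) of 8 genes of the peptide pathway in each retina, drawn as for the precursor genes, with the mean ± SD of the 11 retinas compared and O2-IC100 animal 10 as an open circle. Tacr3 was lower and Pomc higher in every O2-PBS than in every RA-PBS retina, and Bdnf was higher in O2-IC100 animals 9, 11 and 12 than in every O2-PBS retina.

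The enzymes that cut and amidate the precursors and the proteins of the dense-core granule made up a further list. None of 17 listed genes was called in any comparison by edgeR, DESeq2 or voom on 11 retinas. In O2-PBS against RA-PBS 8 had an unadjusted edgeR p under 0.05, as did 3648 of all 16688 tested genes. In O2-IC100 against O2-PBS 4 had one, beside 3201 of all tested genes. In O2-IC100 against RA-PBS 5 had one, beside 2595. Several missed only the fold threshold after oxygen. Pam, the enzyme that amidates many peptides, was 86.3 ± 10.2 normalized CPM in RA-PBS and 63.6 ± 2.59 in O2-PBS retinas (SD, n = 4 each; log2 difference -0.44, edgeR adjusted p = 0.00891). Cadps, needed for granule release, and Scg2, a granule protein, differed by -0.43 and -0.52 on the log2 scale (edgeR adjusted p = 0.0154 and 0.0498). Ptprn, a membrane protein of the granules, went the other way, by 0.47 (0.0399).

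Among 34 further precursor genes, 14 were tested and the other 20 were too low. Pomc and Agrp, whose products act as agonists and antagonist on melanocortin receptors, rose in O2-PBS against RA-PBS. Of all tested genes 4.09% were called higher there. Pomc was 5.75, 4.02, 4.46 and 5.96 normalized CPM in RA-PBS and 8.29, 9.42, 11.2 and 7.65 in O2-PBS retinas (log2 difference 0.86, SE 0.18, edgeR adjusted p = 0.0109). Agrp was 5.32 ± 1.73 and 8.42 ± 0.761 CPM (SD, n = 4 each; 0.66, SE 0.21, 0.0715), a call lost with the Y-linked covariate and without any 1 of 6 retinas, RA-PBS animals 1 and 4 and O2-PBS animals 5 to 8. In O2-IC100 retinas Pomc was 9.14 ± 1.49 CPM (SD, n = 3) and was called against RA-PBS (0.86, edgeR adjusted p = 0.0594), though not without RA-PBS animal 2 or any of O2-IC100 animals 9, 11 and 12. None of the 14 was called in O2-IC100 against O2-PBS by edgeR, and DESeq2 called 1. Of the 14, 1, Agrp, had an unadjusted edgeR p under 0.05 there, as did 3201 of the 16688 tested genes.

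Genes that respond to cyclic AMP were listed because PACAP, VIP and CRH receptors raise it. Of 15 tested, Fos, Junb and Nr4a1, immediate early genes, rose in O2-PBS against RA-PBS, beside 4.09% of all tested genes called higher. Junb was 14.2 ± 3.31 normalized CPM in RA-PBS and 37.5 ± 15.9 in O2-PBS retinas (SD, n = 4 each), with O2-PBS animal 5 at 61.3 and the others at 28.9 to 30.7 (log2 difference 1.40, SE 0.24, edgeR adjusted p = 0.00394). Fos and Nr4a1 differed by 0.97 and 0.61 (0.0100 and 0.0253).

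In O2-IC100 against O2-PBS 1 of the 15 was called. Bdnf, which encodes a neurotrophin, was 6.56, 6.53, 7.44 and 8.02 normalized CPM in O2-PBS retinas and 14.7, 12.4 and 11.8 in O2-IC100 animals 9, 11 and 12, without overlap (log2 difference 0.86, SE 0.15, edgeR adjusted p = 0.0327). The call was lost with the Y-linked covariate, with all 12 retinas, and without O2-PBS animal 5 or any of the 3 O2-IC100 retinas. In edgeR none of all tested genes was called in this comparison with all 12 retinas or without any of those 3. Calls over all genes, 36 higher and 122 lower in the main fit, were 13 and 23 with the Y-linked covariate. Without O2-PBS animal 5 they were 4 and 17. In O2-IC100 against RA-PBS the call was Npas4, an activity-dependent factor, at 9.96 ± 0.481 and 6.46 ± 1.25 CPM (log2 difference 0.62, edgeR adjusted p = 0.081). Of all tested genes 0.947% were called higher in this comparison. The Npas4 call was kept without RA-PBS animal 1 and lost without any other single retina. It was also lost with the Y-linked covariate (log2 difference 0.56), the lens covariate (0.37) and all 12 retinas (0.30). The fits without a filter and with only the 2 groups did not call it either.

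The genes whose levels across the 11 retinas were most like those of the leading members were looked up among 15148 genes with a mean of at least 1 CPM. For Adcyap1 these were Dlk2 (Pearson r = 0.96, Spearman rho = 0.97), Zfp938 (r = 0.95), Ppat (r = 0.94), Mphosph8 (r = 0.92) and Gk (r = 0.92). For Crh they were Paxbp1 (r = 0.93, rho = 0.94), Cfap20, Rab8b, Kctd7 and Pdcd7 (r = 0.87 to 0.88). Their means moved far less than those of Crh: Paxbp1 was 103 normalized CPM in both PBS groups and 110 in O2-IC100 retinas. None of them was a member. These are correlations of retinas that share group and library, picked as the highest of many.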

How the data were processed

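Retinal RNA of 12 mice was sequenced as paired 150 bp reads. The authors quantified it with Kallisto against a mouse annotation of GRCm39 and deposited 1 table of expected counts summarised per Ensembl gene, which need not be whole and were rounded here. The versions of Kallisto and DESeq2 are not given in the sources used here. Symbols came from GENCODE M21 names and matched 35374 of 36131 genes. The table carried no coordinates, and the promoter windows are of GRCm38.p6.

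Main fit: edgeR 4.0.16 (R 4.3.3), TMM scaling, filterByExpr, robust quasi-likelihood test (two-sided), 3 groups together, animal 10 left out, Benjamini-Hochberg adjustment over the 16688 genes kept. Thresholds were those of the study (fold at least 1.5, p under 0.05, adjusted p under 0.1), whose own tool, DESeq2, was run as an alternative (1.42.0). Standard errors are those of the log2 difference. Levels per kilobase used the median length of coding transcripts in GENCODE M21. Correlations used log2 CPM with a prior count of 2.

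The members and all lists were chosen with earlier results of these data known, and so was leaving out animal 10. All 10 members are named. Of the pathway lists (receptors, processing and granule genes, other precursors, cyclic AMP response genes), every gene called in any comparison is named, up to 6 a list and comparison, and the CRH, PACAP, VIP and somatostatin receptors whatever their values. The 5 genes most like Crh and Adcyap1 are named by Pearson r. Pam, Cadps, Scg2, Ptprn, Tacr1 after oxygen and Crhbp were otherwise described after their values were seen. Alternatives were DESeq2, limma voom (limma 3.58.1), all 12 retinas, other scalings and filters, 2 groups only, Y-linked or lens covariates, and leaving out each retina. The retinas come from separate animals, and the p-values measure the spread between them. On simulated counts with the means of the 16688 genes in O2-PBS against RA-PBS, edgeR recovered 86% of 100 genes changed 2-fold and 99% of 100 changed 4-fold, with 18 false calls. The simulation gave every gene the same assumed spread and held no lens or Y-linked differences. Recovery of genes as variable as Crh or Sst in these retinas cannot be read from it.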

Additional observations from a re-analysis of the deposited data

Results flagged for a closer look

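Over the 10 genes, the crystallin share and the total counts, 36 groups of 4 retinas were examined. Of these, 6 held a retina far from the others by Dixon's test at its 95% critical value. Chance gives that in about 5% of groups. Animal 10 was the low retina of its group for Adcyap1 (0.505 normalized CPM), Npy (4.54) and Cartpt (1.89), and the high one for crystallin (59.0% of counts). Vgf was low in O2-PBS animal 6, at 10.6 CPM, and crystallin was high in the same retina, at 0.0204% of counts, a share still far below that of RA-PBS animals 2 to 4.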

How the results depend on the processing

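Including animal 10 removed most calls, and by edgeR none of all tested genes was then called in either O2-IC100 comparison. With all 12 retinas edgeR called 0 of the 10 peptide genes in O2-PBS against RA-PBS and 0 of 8 in O2-IC100 against RA-PBS (5 and 2 with 11 retinas), and DESeq2 with all 12 called 1 and 1. The median peptide difference in O2-IC100 against O2-PBS was 0.092 (edgeR) and 0.10 (DESeq2). All 12 retinas also took the receptor calls to 0 by both tools in O2-PBS and O2-IC100 against RA-PBS, the other precursors in O2-PBS against RA-PBS to 0 by both and in O2-IC100 against RA-PBS to 0 by edgeR, and the cyclic AMP genes to 1, 0 and 0 by edgeR and, in both O2-IC100 comparisons, to 0 by DESeq2.

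DESeq2 on 11 retinas called 2 receptors in O2-PBS against RA-PBS, 1 and 2 other precursors in O2-IC100 against O2-PBS and against RA-PBS, and 2 cyclic AMP genes in each of these. RLE scaling and a filter of 1 CPM each gave 2 receptors in O2-PBS against RA-PBS, and no filter gave 0 cyclic AMP genes in O2-IC100 against RA-PBS. With only the 2 groups compared, O2-PBS against RA-PBS gave 2 receptors and 1 other precursor, O2-IC100 against O2-PBS 1 other precursor, and O2-IC100 against RA-PBS 0 peptide genes, receptors, other precursors and cyclic AMP genes. In the last of these 14 of 16309 tested genes were called higher and 4 lower. The Y-linked covariate gave 1 other precursor in O2-PBS against RA-PBS and 0 cyclic AMP genes in O2-IC100 against O2-PBS. In the latter 13 of all tested genes were called higher and 23 lower, against 36 and 122 in the main fit. The lens covariate gave 4 receptors, 5 processing genes, 6 other precursors and 5 cyclic AMP genes in O2-PBS against RA-PBS, 1 other precursor in O2-IC100 against O2-PBS, and 1 processing gene and 0 cyclic AMP genes in O2-IC100 against RA-PBS. Calls over all 16688 tested genes grew with it too. In O2-PBS against RA-PBS 1988 were called higher and 1014 lower, against 682 and 364 in the main fit. In O2-IC100 against RA-PBS 910 and 496 were, against 158 and 103. The cause of these changes was not tested.

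Leaving out each retina kept 5 peptide genes in O2-PBS against RA-PBS and moved the count in O2-IC100 against RA-PBS between 0 and 2. In O2-PBS against RA-PBS receptors ranged from 1 to 2, processing genes from 0 to 2, other precursors from 1 to 2 and cyclic AMP genes from 2 to 3. In O2-IC100 against O2-PBS other precursors and cyclic AMP genes each ranged from 0 to 1, and without animal 9, 11 or 12 none of all tested genes was called. In O2-IC100 against RA-PBS receptors ranged from 0 to 3, processing genes from 0 to 1, other precursors from 0 to 1 and cyclic AMP genes from 0 to 2.

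Differences that were near 0 changed sign. Crh in O2-PBS against RA-PBS was -0.0022 with DESeq2 on 12 retinas, -0.0011 with the 1 CPM filter, -0.0045 with 2 groups and -0.25 to 0.44 with a retina left out, negative without RA-PBS animal 1 (-0.17) or 2 (-0.22) or O2-PBS animal 8 (-0.25). Sst was 0.041 with voom and -0.32 to 0.29 with a retina left out, positive without RA-PBS animal 1 (0.29). Vgf in O2-IC100 against RA-PBS was -0.015 and -0.025 with all 12 retinas in edgeR and DESeq2. No paired analysis was possible because each animal number occurs in 1 group only. Depth limits Crh and Sst most, with 9 to 28 counts of Crh in each PBS retina.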

Other observations

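Most of the precursor genes outside the 10 were near or under the floor in every group. Of the 20 too low to test, Ucn3, Prok2 and Rln3 were listed at 0 in all 11 retinas compared. Among those tested, Pdyn, the dynorphin precursor, and Tac2, the neurokinin B precursor, were the most abundant, at 12.4 ± 4.50 and 10.5 ± 3.03 normalized CPM in RA-PBS retinas (SD, n = 4 each), and neither passed the test in any comparison. Grp, the precursor of gastrin-releasing peptide, was 1.82 ± 0.469 CPM in RA-PBS, 0.945 ± 0.486 in O2-PBS (SD, n = 4 each) and 0.695 ± 0.345 in O2-IC100 retinas (SD, n = 3), with an edgeR adjusted p of 0.22 and 0.188 against RA-PBS. These 6 genes were chosen after their values were seen.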
